A study of Mus musculus with 3 samples.

Results

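The forkhead transcription factor genes described here are the 4 FoxO genes Foxo1, Foxo3, Foxo4 and Foxo6, together with Foxk1, Foxk2, Foxp1, Foxj2, Foxj3 and Foxn3. Their probes were found by matching the accession printed for each probe to RefSeq. This gave 15 of the 39429 non-control probes of the array, and 13 of the 15, from 9 of the 10 genes, were bright enough to be tested. The RNA came from the lower-limb skeletal muscle of male C57BL/6 mice, with 3 control RNAs and 3 RNAs of mFoxO1KO mice, whose Foxo1 deletion is inducible and limited to skeletal muscle. Control and knockout mice alike ate an AIN93G diet with doxycycline (0.625 g/kg) between 8 and 14 weeks of age, so the drug does not separate the groups. The promoter that drives the deletion is not given in the sources used here. Each of 3 Agilent arrays held 1 control RNA in the Cy3 (green) channel and 1 mFoxO1KO RNA in the Cy5 (red) channel. All arrays lay on 1 slide and the dyes were never swapped, so a dye effect of a single probe and the effect of the genotype cannot be told apart.

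Forkhead factors share a winged-helix domain that binds DNA at short sites with a core of the TAAACA type. FoxO factors are restrained by insulin: Akt and the related Sgk kinases phosphorylate them, 14-3-3 proteins then hold them in the cytoplasm, and when insulin falls they return to the nucleus and drive genes of protein breakdown, autophagy and fasting metabolism. FoxK factors move the opposite way, entering the nucleus after insulin, and in muscle they repress autophagy genes that FoxO3 activates. The other members have separate roles in muscle and metabolism, given below beside their values.

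The scanned medians of the 3 arrays were 90.5 to 97 in Cy3 and 99 to 102 in Cy5 over local backgrounds of 35.5 to 38 and 50.5 to 52, and no spot was saturated. Of 10 fixed markers of skeletal muscle fibres, 9 passed the filter on dim probes described below, among them creatine kinase (Ckm), whose log2 ratio averaged 0.07 ± 0.06 (SD, n = 3). Throughout, a ratio is the log2 of normalised knockout over control signal on 1 array, errors after ± are the SD over the 3 arrays, and a probe was kept for testing if it was well above background in the same channel on all 3 arrays. A probe counts as changed at an adjusted p under 0.05 (limma, Benjamini-Hochberg over the 21393 probes kept). Scanned values are given before the dye correction, so a knockout scan above its control can go with a ratio below 0.

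Promoter sequence was given for 7 of the 10 members, in 9 windows of 250 bases before a start site (RefSeq, GRCm38.p6), and forkhead core motifs were counted in them on both strands. The 7-base site GTAAACA was in 0 of the 9 windows and in 3.17% of 32851 windows of all genes. TAAACA, which GTAAACA contains, was in 3 of the 9, all of them the Foxp1 windows, and in 12.0% of all windows. Its last 5 bases, AAACA, were in 5 of the 9 and in 46.4% of all windows. The Foxo1 window is shown as that of the gene whose transcript fell, and the most upstream Foxp1 window as one with a TAAACA match in a gene whose ratios were near 0. They lie at chr3:52268087-52268336 on the plus strand and chr6:99520994-99521243 on the minus strand. Capitals mark each AAACA core on either strand, and the third capital run of Foxp1 is the TAAACA match with its first base in lower case.

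Foxo1: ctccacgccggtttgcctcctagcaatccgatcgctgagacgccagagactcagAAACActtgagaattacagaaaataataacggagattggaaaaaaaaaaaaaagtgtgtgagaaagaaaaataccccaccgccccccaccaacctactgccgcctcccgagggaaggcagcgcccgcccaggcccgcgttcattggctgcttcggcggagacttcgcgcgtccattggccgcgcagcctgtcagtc

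Foxp1: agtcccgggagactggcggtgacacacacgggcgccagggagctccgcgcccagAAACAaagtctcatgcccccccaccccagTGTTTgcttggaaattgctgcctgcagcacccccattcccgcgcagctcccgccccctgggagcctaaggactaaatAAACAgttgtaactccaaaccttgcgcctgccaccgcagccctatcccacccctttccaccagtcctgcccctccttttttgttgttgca

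A match of letters is a description of the window and not a binding site, and these arrays measured no binding. Foxo1 held 1 such core and the Foxp1 window 3.

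Foxo1, the targeted gene and the main insulin-restrained FoxO factor of liver and muscle, fell on all 3 arrays. The brighter of its 2 probes (A_51_P138044, accession NM_019739) scanned at 1942, 4996 and 3687 in the control channel of arrays 1, 2 and 3 and at 1129, 1342.5 and 1335 in the knockout channel. All control signals lay above all knockout signals. After normalisation the ratios were -1.50, -2.42 and -2.27, a mean of -2.06 ± 0.49 or 23.9% of control, with a 95% confidence interval of 17.1% to 33.4% (limma, adjusted p = 0.0268). Array by array the knockout stood at 35.3%, 18.7% and 20.7% of its control. Only 2 of the 21393 kept probes had a lower mean ratio.

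The second Foxo1 probe (A_52_P453884, same accession) showed a smaller difference between the genotypes on each array. It scanned at 1220.5, 3491 and 2516.5 in control and at 1238, 1609 and 1219 in knockout. On array 1 the scanned knockout was slightly above control, so the ratio below 0 there came with the dye correction. Its ratios were -0.70, -1.64 and -1.84, a mean of -1.39 ± 0.61 or 38.1% of control (25.3% to 57.4%), which did not pass over all probes (limma, adjusted p = 0.0535). The second probe minus the first was 0.80, 0.78 and 0.43 on the 3 arrays, a mean of 0.67 ± 0.21, so the second probe read higher on all 3. No source used here places either probe inside or outside the deletion, so they check the genotype labels only if they report on the deleted stretch.

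Of the 13 kept member probes, 1 was called, the brighter Foxo1 probe, which was lower in the knockout. Over all kept probes 2.75% were called, 0.734% lower (157 probes) and 2.02% higher (432 probes) in the knockout, so 1 of 13 rests on a single gene and is not read as a share. With arrays only centred on their medians the split was 49 lower and 1211 higher. With loess normalisation, 5 of the 13 member probes had an unadjusted p under 0.05 (limma), from Foxo1 (both probes), Foxo6, Foxk1 and Foxn3, against 5735 of the 21393 kept probes. The call on Foxo1 was lost without array 2, where the mean was -1.88 (limma, adjusted p = 0.0948). It was also lost when only probes above the median intensity of all kept probes were tested (adjusted p = 0.0540).

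**Figure D1:**
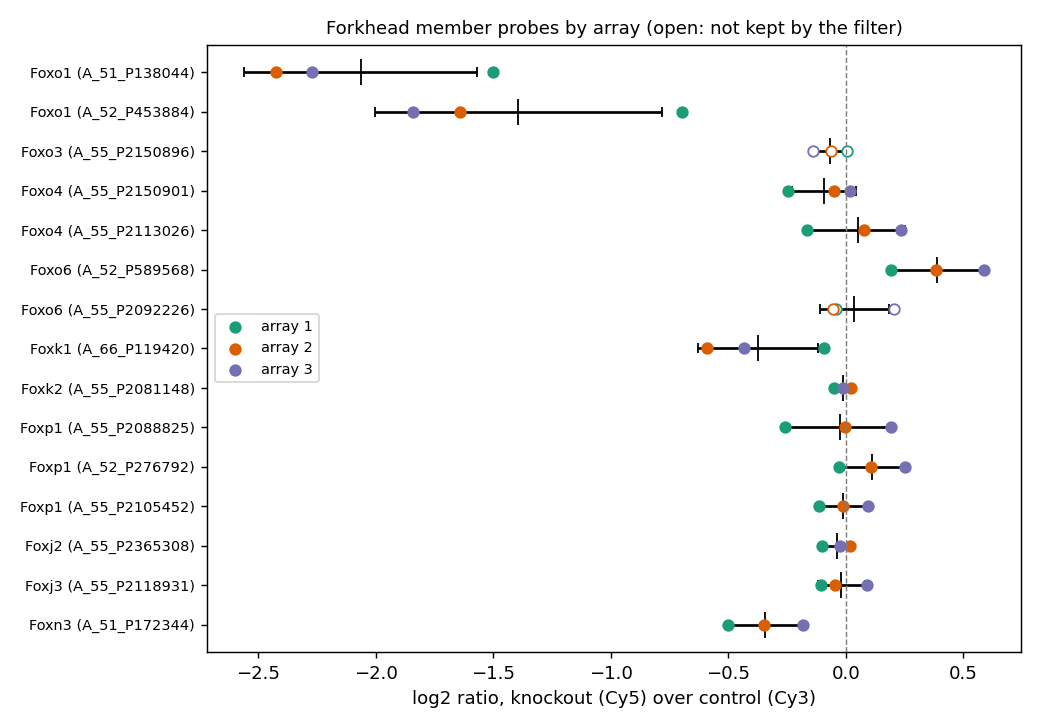
Log2 ratio of knockout over control (x axis) for the 15 member probes (y axis), with a point per array, a vertical tick at the mean and a bar of 1 SD over the 3 arrays. Open points are the 2 probes too dim to be tested. Both Foxo1 probes lie well to the left of 0 on all arrays, at means of -2.06 and -1.39, while the 11 other filled rows have means between -0.37 and 0.39.

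The spread of the Foxo1 ratio between arrays sat mostly in the control channel. On the log2 scale after normalisation between arrays, the control level of the brighter probe was 11.33, 12.58 and 12.23 (mean 12.05 ± 0.64) and its knockout level 9.83, 10.16 and 9.96 (mean 9.98 ± 0.17). The brightest control was therefore 2.38-fold above the dimmest, against 1.26-fold among the knockouts. The second probe had control levels of 10.67, 12.07 and 11.68 and knockout levels of 9.98, 10.43 and 9.84, ranges of 2.63-fold and 1.51-fold. The median SD over all kept probes was 0.11 in the control channel and 0.10 in the knockout channel. Both Foxo1 probes varied more than a typical probe between the control RNAs (SD 0.64 and 0.72) and also between the knockout RNAs (SD 0.17 and 0.31). Array 1, with the dimmest control, gave the smallest fall for both probes.

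Foxo1 is expressed in many cell types, and in these bulk samples fewer cells of a type and less RNA per cell cannot be told apart. Marker sums here are the log2 of the summed unlogged levels, so bright markers weigh most. For the 6 measured adipocyte markers the sum in the control channel was 15.26, 16.49 and 15.90 on arrays 1, 2 and 3, in the same order as Foxo1. Fibroblast markers (15.27, 15.91 and 15.32, 5 of 5 measured) and endothelial markers (12.51, 12.99 and 12.53, 7 of 7 measured) were also highest on array 2 in the control channel, whereas muscle fibre markers stayed between 19.31 and 19.34. Both were highest on array 2 in the knockout channel too, at 15.47, 15.86 and 15.42 for fibroblast and 12.93, 12.95 and 12.60 for endothelial markers. Their median ratios were 0.21, 0.09 and 0.09 and 0.26, 0.05 and 0.11, with none called. In the knockout channel the muscle fibre sum was 19.44, 19.42 and 19.51, above every control, with median ratios of 0.11, 0.13 and 0.25 and 1 of the 9 markers called higher. In the knockout channel the adipocyte sum ran from 16.61 to 17.60, above every control, and was highest on array 1. The median ratio of the adipocyte markers was 2.89, 0.20 and 1.84 on the arrays, none of the 6 passed the test, and leptin (Lep) did not pass the filter on dim probes. The part of these cells in the Foxo1 ratio was not tested. Macrophage markers (4 of 6 kept) had medians of -0.10, 0.51 and 0.62 with 1 gene higher. Satellite cell markers (3 of 4 kept) ran from -0.14 to 0.20 and lymphocyte markers (2 of 6 kept) from 0.01 to 0.19, with none called. On array 1, where the adipocyte median was 2.89, the Foxo1 probes had their smallest falls, with ratios of -1.50 and -0.70. On array 2, where the median was 0.20, they had -2.42 and -1.64, and on array 3, where it was 1.84, they had -2.27 and -1.84.

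**Figure D2:**
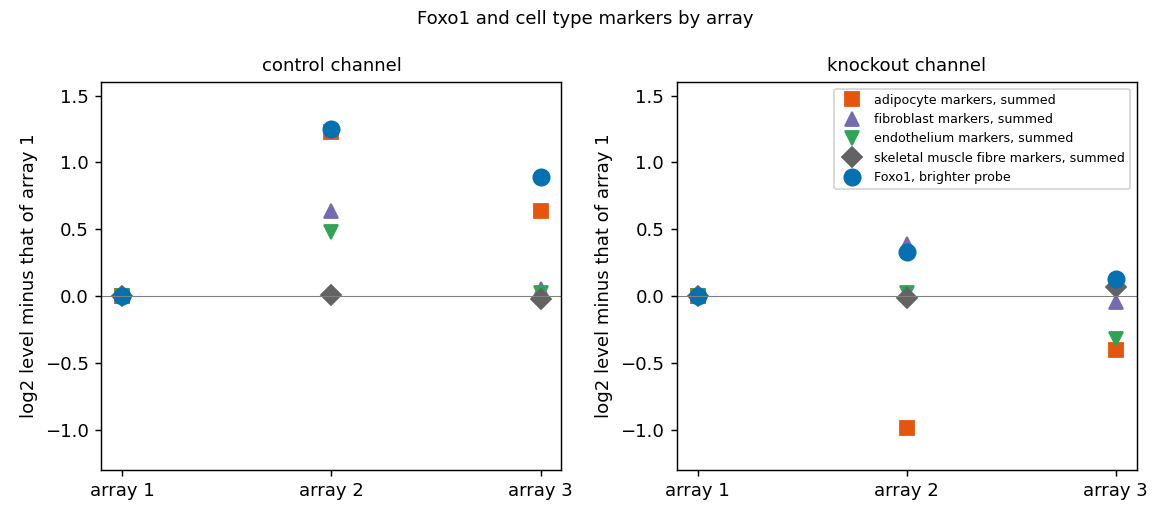
Log2 level of the brighter Foxo1 probe and log2 of the summed levels of 4 sets of cell type markers on each array, as the difference from array 1, in the control channel (left) and the knockout channel (right). In the control channel Foxo1 and the adipocyte sum both rank array 2 above array 3 above array 1, and muscle fibre markers stay near 0. In the knockout channel the adipocyte sum is highest on array 1 while the brighter Foxo1 probe is lowest there. The second Foxo1 probe, not drawn, was lowest on array 3 in that channel.

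The other FoxO genes act through the same sites as Foxo1, and 2 of the 3 could be tested. Foxo6, a FoxO factor that shuttles less between nucleus and cytoplasm than its relatives, had the highest ratio among the members. Its bright probe (A_52_P589568, NM_194060) scanned at 534.5, 384 and 407.5 in control and at 994, 691.5 and 1024 in knockout. The ratios were 0.19, 0.39 and 0.59, a mean of 0.39 ± 0.20 or 131% of control (111% to 154%), above 0 on all arrays but not past the threshold (limma, adjusted p = 0.0854). With median centring alone, the median of all kept probes was 0.15. The mean of the bright Foxo6 probe was then 0.58 and passed (limma, adjusted p = 0.0355). Over 16 alternatives its mean stayed between 0.29 and 0.58. Normalised control levels of 9.48, 8.82 and 9.06 overlapped the knockout levels of 9.67, 9.20 and 9.65. The other Foxo6 probe (A_55_P2092226, same accession) was not well above background in either channel of any array, and its ratio was not tested.

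Foxo4, the FoxO gene on the X chromosome, was dim. Its brighter probe (A_55_P2150901, NM_018789) scanned at 110, 98.5 and 103 in control and at 103, 94.5 and 120 in knockout. The ratios of -0.25, -0.05 and 0.02 had a mean of -0.09 ± 0.14 (limma, adjusted p = 0.456), with a 95% interval of 82.3% to 107% of control. The other Foxo4 probe (A_55_P2113026) had -0.16, 0.08 and 0.23, a mean of 0.05 ± 0.20 and an interval of 88.1% to 122%, and its mean was below 0 in 4 of 14 alternatives. Neither sign was shared by all 3 arrays, and both sets of channel levels overlapped.

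Foxo3, which drives autophagy and ubiquitin ligase genes in wasting muscle, had 1 probe (A_55_P2150896, NM_019740). It scanned at 79, 84 and 86 in control and at 69, 71 and 75.5 in knockout, and was well above background only in the control channel of array 2. It was therefore not tested, and this probe was not well above background in the knockout channel of any array. Its normalised ratios were 0.01, -0.07 and -0.14, but the log ratios of the scanner software were -0.80, -0.77 and -0.84. A single dim probe sets no limit on the level of Foxo3.

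Foxk1 had the lowest mean ratio after Foxo1. Foxk1 was first described as a myocyte nuclear factor of muscle progenitor cells. Its probe (A_66_P119420, NM_199068) scanned at 896, 1472 and 1149 in control and at 1383, 1392 and 1475 in knockout. Scanned knockout values were above control on arrays 1 and 3, so the ratios below 0 there came with the dye correction. The ratios were -0.09, -0.59 and -0.43, a mean of -0.37 ± 0.26 or 77.2% of control (63.7% to 93.6%), which did not pass (limma, adjusted p = 0.117). Its normalised levels were 10.23, 10.80 and 10.55 in control and 10.14, 10.21 and 10.11 in knockout, so the lowest control lay only just above the highest knockout. The control SD (0.29) was larger than the knockout SD (0.05), as it was for 9 of the 13 kept member probes and for 50.8% of all kept probes. As for Foxo1, array 2 had the highest control and array 1 the lowest, and the ratio was nearest to 0 on array 1. With median centring alone the mean was -0.17.

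Foxk2, its closest relative, had ratios near 0 on each array. Its probe (A_55_P2081148, NM_001080932) scanned at 1495, 1409 and 1571 in control and at 2377.5, 2075 and 2757 in knockout. The ratios of -0.05, 0.02 and -0.01 gave a mean of -0.01 ± 0.04, the smallest SD of any member, with an interval of 89.8% to 109% of control (limma, adjusted p = 0.910). The mean was 0.20 with median centring alone. The difference between Foxk1 and Foxk2 was not tested.

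Foxn3, a transcriptional repressor that affects glucose handling in liver, had a normalised ratio below 0 on every array. Its probe (A_51_P172344, NM_183186) scanned at 2318, 2120.5 and 2090 in control and at 2690, 2424.5 and 3280 in knockout. The scanned knockout was above control on every array, so the sign of the ratios rests on the dye correction. The ratios were -0.50, -0.35 and -0.18, a mean of -0.34 ± 0.16 or 78.8% of control (68.4% to 90.8%), not past the threshold (limma, adjusted p = 0.0849). The control levels of 11.57, 11.35 and 11.40 all lay above the knockout levels, whose mean was 11.10 ± 0.11 and whose highest was 11.22. In a fit of separate channels with the array as a replicate block the same mean passed (adjusted p = 0.0381), and with median centring alone it was -0.13.

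**Figure D3:**
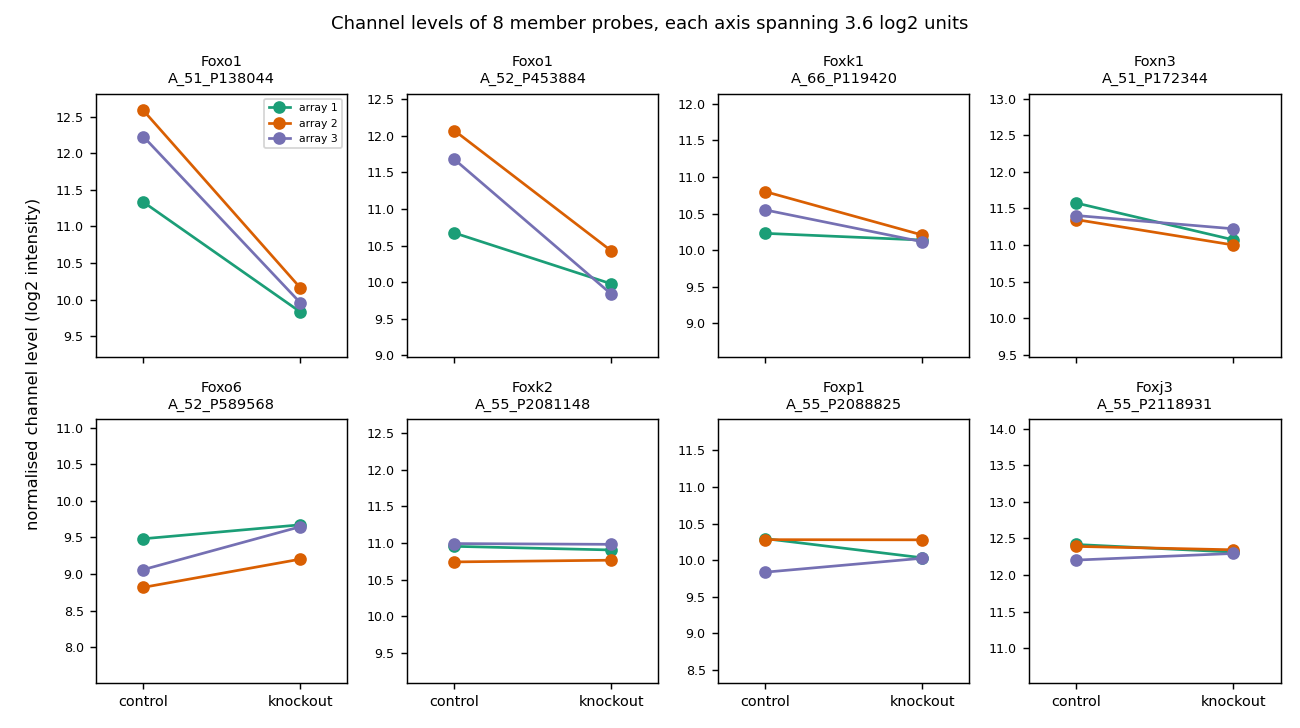
Normalised log2 level in the control and knockout channels for 8 member probes, with a line per array and vertical axes of equal span. Controls spread more than knockouts in all 8 panels. Knockouts spread more for the dimmer Foxo4 and Foxp1 probes and for Foxj2, which are not drawn. Both Foxo1 probes, Foxk1 and Foxn3 are lower in the knockout on each array. Foxo6 is higher on each array, and Foxk2, Foxp1 and Foxj3 have means near 0.

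The remaining members had mean ratios close to 0 after loess normalisation. Foxp1, a repressor that dimerises through a leucine zipper, had 3 probes, 2 for NM_053202 and 1 for NM_001197321. The brightest (A_55_P2088825) scanned at 937.5, 1041 and 700 in control and at 1279, 1480 and 1379 in knockout, with ratios of -0.26, -0.0024 and 0.19 and a mean of -0.02 ± 0.23 (82.5% to 117% of control). The next (A_52_P276792) had -0.03, 0.11 and 0.25 and a mean of 0.11 ± 0.14, and the probe of the other transcript (A_55_P2105452) had -0.11, -0.01 and 0.09 and a mean of -0.01 ± 0.10. All 3 were lowest on array 1 and highest on array 3, and none passed (limma, adjusted p of 0.898, 0.388 and 0.931).

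Foxj3, which activates the muscle gene Mef2c and takes part in fibre type identity and regeneration, scanned between 3627 and 4273 in control and between 6215 and 7026 in knockout (A_55_P2118931, NM_172699). Its ratios were -0.10, -0.05 and 0.09, a mean of -0.02 ± 0.10 (limma, adjusted p = 0.869), with an interval of 87.9% to 111% of control. Its relative Foxj2 was dim (A_55_P2365308, NM_021899), at 85, 89.5 and 91 in control and 78, 72.5 and 86 in knockout. The Foxj2 mean was -0.04 ± 0.06 and its interval 87.9% to 108% (adjusted p = 0.714). This value depended on the processing, since the log ratios of the scanner software gave -0.58 (adjusted p = 0.104), outside that interval. The sign of the mean turned positive with median centring alone for Foxj3 (0.21), Foxk2 (0.20) and the brightest Foxp1 probe (0.18).

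Ordered by mean ratio, the brightest kept probe of each gene ran from Foxo1 (-2.06) through Foxk1 (-0.37), Foxn3 (-0.34), Foxo4 (-0.09), Foxj2 (-0.04), Foxp1 (-0.02), Foxj3 (-0.02) and Foxk2 (-0.01) to Foxo6 (0.39). Foxk1 and Foxn3 lay closer together than 1 SD of either, and so did each pair of neighbours from Foxo4 to Foxk2. For 9 of the 13 kept probes the 95% interval lay within a 1.5-fold change in either direction. The 4 that reached beyond it were the 2 Foxo1 probes, Foxo6 and Foxk1. No share over all kept probes stands beside this count, so it is not read as a trait of the members. Channel levels did not overlap between the genotypes for 4 of the 13, both Foxo1 probes, Foxk1 and Foxn3, against 25.4% of all kept probes. Of the 13, 5 had the same sign on all arrays, against 52.3% of all kept probes.

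Many members shared an order of the arrays. The ratio was lowest on array 1 and highest on array 3 for 8 of the 13 kept probes, namely both Foxo4 probes, Foxo6, all 3 Foxp1 probes, Foxj3 and Foxn3, against 19.5% of all kept probes. In the log ratios that the scanner software computed it was 7 of 13 against 20.4%. The probes of 1 gene share their target and do not count separately, and the part of the arrays or of the RNAs in that order was not tested.

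**Figure D4:**
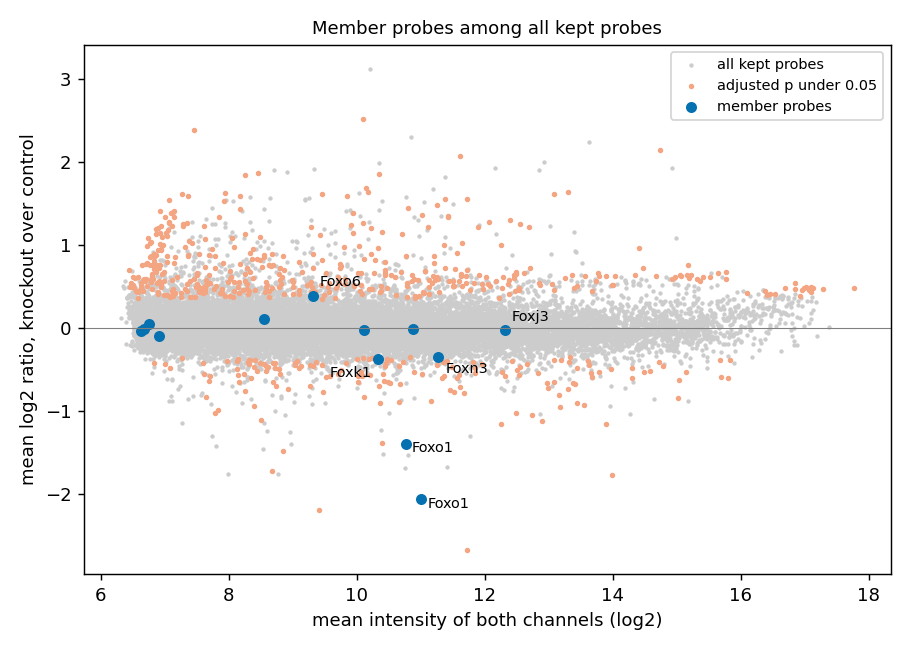
Mean log2 ratio of knockout over control (y axis) against the mean log2 intensity of both channels (x axis) for the 21393 kept probes, with called probes in orange and the 13 member probes in blue. The 2 Foxo1 probes, at -2.06 and -1.39, lie below the main cloud, and the other 11 lie inside it.

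The named genes whose 3 ratios lay nearest to those of the brighter Foxo1 probe, by Euclidean distance over the 3 arrays, were Htra4, Pfkfb3, Plac9a, Dkk3 and Kcnab1. Htra4, a serine protease gene, was nearest at a distance of 0.68, with ratios of -1.85, -2.02 and -2.70. Pfkfb3, which makes the glycolysis activator fructose 2,6-bisphosphate, followed at 0.97 with -1.70, -2.26 and -1.33, then Plac9a at 1.21, the secreted glycoprotein gene Dkk3 at 1.295 and the potassium channel subunit gene Kcnab1 at 1.46. With 3 arrays this distance mainly finds genes with similarly low ratios.

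Genes of enzymes and partners that act on FoxO proteins were described as lists. They were drawn from general knowledge, but with earlier results of these data known. All 15 kinase genes were measured and none passed the test, with a median ratio of 0.05 against 0.01 over all genes with 1 probe each. Of those 17460 genes, 384 passed as higher and 134 as lower in the knockout. The counts of this list and of the lists below are therefore too small to be read as shares. Sgk1, an insulin- and steroid-induced kinase that phosphorylates FoxO factors like Akt, had 0.74, 0.74 and 0.25, a mean of 0.58 ± 0.28 (limma, adjusted p = 0.0693). Its relative Sgk3 had a mean of 0.26 ± 0.02 (adjusted p = 0.0723), and Prkaa2, the muscle catalytic subunit of AMPK, -0.38 ± 0.14 (adjusted p = 0.0665). With median centring alone Prkaa2 had -0.11 (adjusted p = 0.735) and Sgk3 0.50 (adjusted p = 0.0661), and with the replicate block both passed at unmoved means (adjusted p of 0.0240 and 0.0250). Sgk1 passed in 3 of 16 alternatives, among them the removal of array 3, at 0.74 (adjusted p = 0.0450).

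All 12 genes of phosphatases and of acetylation and methylation enzymes were measured and none passed, with a median of 0.10. The deacetylases Sirt3 and Sirt1, of mitochondria and nucleus, had 0.22 ± 0.04 and -0.29 ± 0.19, and the acetyltransferase gene Crebbp 0.28 ± 0.17 (limma, adjusted p of 0.0996, 0.125 and 0.122). Of 4 ubiquitin enzyme genes 3 were measured and none passed. The chaperone-linked ligase gene Stub1 had 0.19 ± 0.10, and Mdm2 and the deubiquitinase gene Usp7 had 0.06 ± 0.04 and 0.04 ± 0.06.

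Among 16 genes of 14-3-3 proteins, exportin and nuclear partners, 1 rose and none fell, with a median of 0.07. Over all 17460 genes with 1 probe each, 384 rose and 134 fell. The gene that rose was Ppargc1a, which encodes PGC-1α, a coactivator of mitochondrial genes that FoxO1 binds, with ratios of 1.08, 1.95 and 1.01 and a mean of 1.35 ± 0.52 or 2.54-fold (limma, adjusted p = 0.0480). That call was lost in 9 of 16 alternatives, among them the removal of any single array, with adjusted p of 0.0611 without array 1, 0.0578 without array 2 and 0.0634 without array 3. The 14-3-3 genes Ywhah and Ywhaz, whose proteins hold phosphorylated FoxO factors in the cytoplasm, had 0.29 ± 0.17 and 0.28 ± 0.18 (adjusted p of 0.110 and 0.127).

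Of 38 other genes whose symbol starts with Fox, 11 were kept and none passed, with a median of -0.01 and means between -0.15 and 0.16. Foxred1 and Foxred2, oxidoreductase genes without a forkhead domain, are among the 11, and without them and antisense genes 9 of 34 were kept. Foxred1 had -0.15 ± 0.08, Foxd3 -0.11 ± 0.05 and Foxf1 0.16 ± 0.26 (limma, adjusted p of 0.195, 0.283 and 0.387). The rest had no probe that passed the filter, which sets no limit on their level.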

How the data were processed

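Per the file headers, the deposited files are Agilent Feature Extraction 11.5.1.1 output for 3 arrays, while the submitters' processing notes name version 9.3.2.1. The deposited intensity values used were the median signals of spots and local backgrounds, with control in Cy3 and knockout in Cy5 per the labels' protocols. The deposited LogRatio is log10 of Cy5 over Cy3 processed intensity, as checked on the files. Other deposited columns, such as the well-above-background flag, have no unit.

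Background was corrected with normexp (offset 50) and dyes by loess, control spots at weight 0 (limma 3.58.1, R 4.3.3). Probes were kept where the same channel was flagged well above background on every array (21393 of 39429). An intercept-only limma fit tested the log2 ratio against 0. Of the probes, 69.8% took a symbol from RefSeq (GRCm38.p6). Channel levels are loess values after Aquantile scaling between arrays. The fit was run on simulated data with independent noise and no dye or array effects, so that run does not address such effects. Likeness and lists followed fixed rules: 3 genes of smallest p per list, and 5 nearest to Foxo1. The members and lists were chosen with earlier results of these data known. The labels do not say whether the 3 RNAs of a group came from separate mice, so p-values measure only the spread between these samples. The alternatives numbered 16.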

Additional observations from a re-analysis of the deposited data

How the results depend on the processing

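Every alternative that tested them kept both Foxo1 probes below 0 (16 for the brighter, 15 for the second). The brighter probe ranged from -2.35 to -1.85 and missed the threshold only among probes above the median intensity (-2.06, adjusted p = 0.0540) and without array 2, with -2.35 to -1.88 when 1 array was left out. The second probe passed with an intensity trend (-1.39, adjusted p = 0.0471), median centring (-1.18, adjusted p = 0.00938), no filter (-1.39, adjusted p = 0.0420) and the replicate block (-1.39, adjusted p = 0.0268), and ranged from -1.74 to -1.17 with 1 array left out, passing without array 1.

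Against 589 probes called, 61 were called above background in both channels, 4 above the median intensity, 200 with the deposited log ratio, 200 with processed signals, 1260 with median centring, 889 with no filter, 1946 in separate channels with the array as a replicate block (consensus correlation 0.42), 215 without that block and 66 to 323 with 1 array left out. Against 1 member probe, 0 were called above the median intensity, 2 with the trend, 3 with median centring, 2 with no filter, 3 with the replicate block and 0 to 2 with 1 array left out. Against 1 listed gene, 0 were called above background in both channels, above the median intensity, with the deposited log ratio, processed signals, robust hyperparameters or separate channels without the block, 2 with median centring, 4 with the replicate block and 0 to 1 with 1 array left out.

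Some means changed sign. With median centring they were 0.0057 for Foxi2, 0.21 for Foxj3, 0.20 for Foxk2, 0.18 for Foxp1 (A_55_P2088825) and 0.054 for Foxred1. For Foxo4 (A_55_P2113026) the mean was -0.32 with the deposited log ratio and with processed signals, -0.025 with no background subtraction and -0.042 to 0.16 with 1 array left out. For Foxp1 (A_55_P2105452) it was 0.0049 with the deposited log ratio and with processed signals. With 1 array left out, the ranges were -0.075 to 0.022 for Foxj3, -0.030 to 0.0066 for Foxk2, -0.13 to 0.094 for Foxp1 (A_55_P2088825) and -0.064 to 0.040 for Foxp1 (A_55_P2105452). The cause was not tested. Dim members (Foxo3, Foxo4, Foxj2) are limited by signal over background.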
